A study of Mus musculus with 8 samples.

Results

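The 45 genes of the lysosome were followed in RNA of whole mouse kidney after ischemia-reperfusion (I/R), the interruption and return of blood flow to the organ. They were taken by symbol from a list of hydrolases, membrane proteins and regulators, and all 45 were found among the 25239 genes of the count table. None was lost to the filter on low counts: the members had between 61 and 96185 counts in any 1 library. The study deleted the transcription factor FoxO1 in myeloid cells, the lineage of macrophages and neutrophils, and compared such kidneys with controls, all after I/R; no uninjured kidney was analysed here. The knockout group has 4 libraries, labelled as myeloid-specific FoxO1 knockout; per the labels' protocols these were Lyz2-CreERT2 FoxO1flox/flox mice, given tamoxifen at 75 mg per kg on 5 days when 8 to 10 weeks old. In them the Lyz2 promoter drives a Cre recombinase that tamoxifen activates. The control group has 4 libraries of genotype WT. The same age and tamoxifen protocol is listed with all 8 libraries. Whether the controls themselves carried Cre or the floxed allele, or received tamoxifen, is not given in the sources used here, nor is the time between reperfusion and collection. All mice lost the right kidney, and blood flow to the left one was stopped with a clamp for 35 minutes. The labels do not tie each library to an animal of its own, so the p-values measure the spread between libraries, which may be partly technical.

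Lysosomes are acidic compartments in which proteins, glycans and lipids are broken down by hydrolases. Most of these enzymes are tagged with mannose 6-phosphate in the Golgi and carried to the lysosome by receptors, and a proton pump, the V-ATPase, keeps the interior acidic. In the kidney, proximal tubule cells use lysosomes to digest filtered protein and worn organelles, and macrophages use them to digest the debris of dead cells. The transcription factor TFEB activates many lysosomal genes through the CLEAR element, an E-box in their promoters, and FoxO factors are known activators of autophagy genes.

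The libraries held 29044405 to 35530421 counts, and 15000 genes were tested. Foxo1 itself stood at 39.3 to 42.9 CPM (counts scaled to an equal library size) in the knockouts and 33.0 to 34.5 CPM in the controls (log2 fold change 0.29 ± 0.09 SE; adjusted p = 0.0647, edgeR); counts per gene of a whole tissue do not check a deletion in myeloid cells. Lyz2 ran from 0.367 to 46.9 CPM in the knockouts and from 2.28 to 50.4 CPM in the controls, with knockout 3 and control 1 far below the other libraries, and the macrophage gene Adgre1 stood at 8.66 ± 1.43 CPM in knockouts and 7.08 ± 2.09 CPM in controls (SD, n = 4 each, adjusted p = 0.454). The labelled tissue was borne out by the tubule genes Umod, at 5550 ± 375 CPM in knockouts and 2630 ± 621 CPM in controls, and Slc34a1, at 2603 ± 393 CPM in knockouts and 1589 ± 826 CPM in controls. In bulk tissue, fewer cells of a type and less RNA per cell cannot be told apart, and this holds for every value here.

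The cysteine and aspartic proteases Ctsl, Lgmn, Ctsb, Ctsd and Ctsz were lower in the knockout, and the protease Ctsf and the lipid enzyme Smpd1 were higher. Across the 45 genes, 6 fell (Ctsl, Lgmn, Ctsb, Ctsd, Ctsz and Gusb), 2 rose (Ctsf and Smpd1) and 37 did not pass an adjusted p of 0.05. The fit was edgeR's quasi-likelihood test over all genes. The 8 called members are 17.8% of the 45, against 12.7% of all 15000 genes called. The 6 lower members are 13.3% of the list, against 6.28% of all genes called lower, and the 2 higher members are 4.44%, against 6.45% of all genes called higher. In 11 members (24.4%) the 4 knockout libraries did not overlap the 4 controls, against 21.7% of all genes. The share of the list with an unadjusted p under 0.05, 13 of 45 or 28.9%, was close to the 29.1% of all genes. The median log2 fold change was 0.04 for the members and -0.01 for all genes, with 24 members above and 21 below 0. By its median and its share with an unadjusted p under 0.05 the list lay near the background, while its share called lower was above it. Of the 6 lower calls, 5 were among the 13 proteases.

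**Figure D1:**
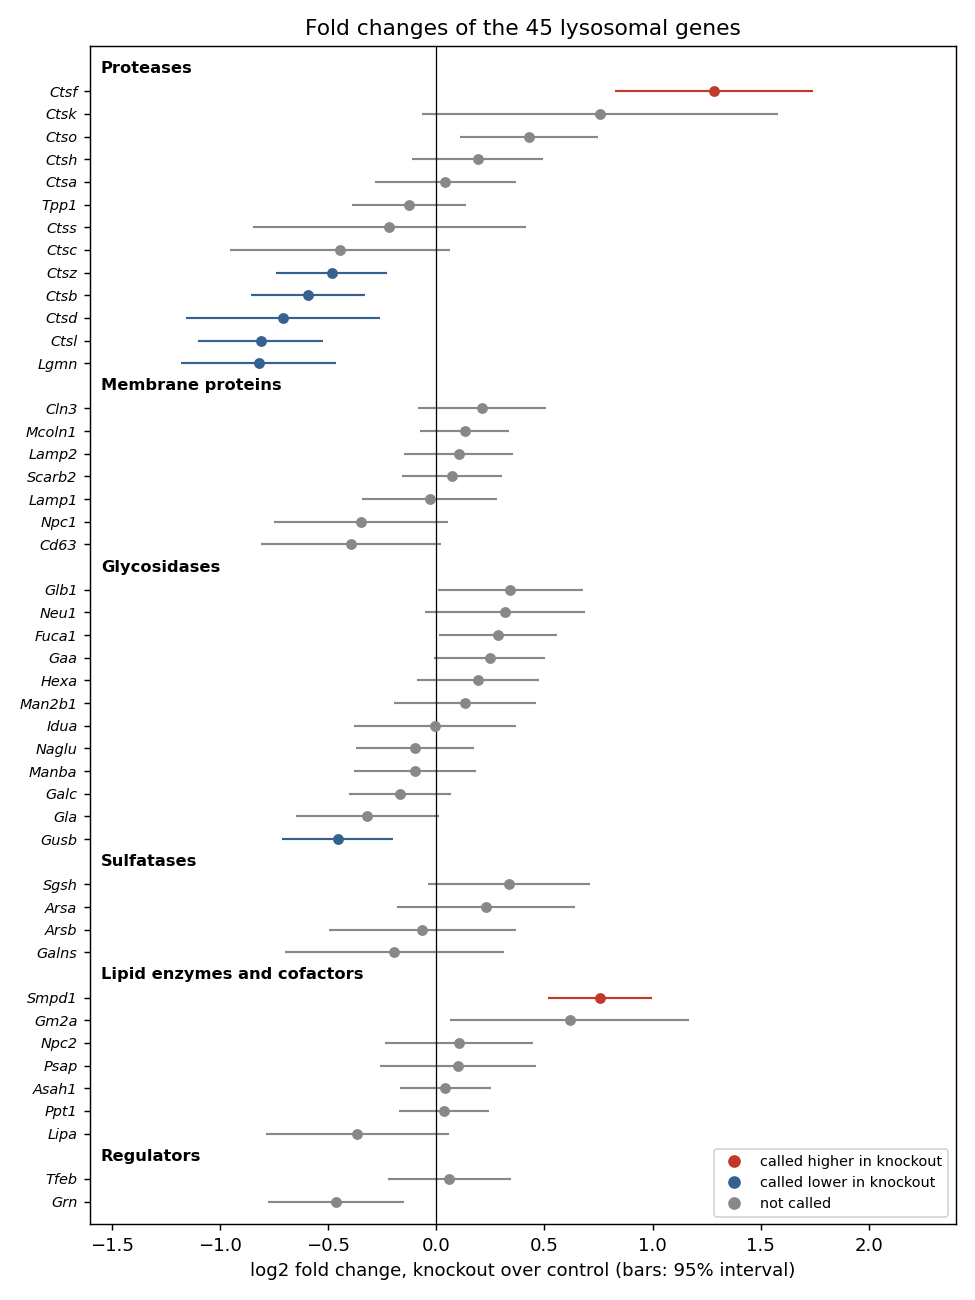
Log2 fold change (knockout over control, x axis) of each of the 45 genes, grouped by role, with the 95% interval from the edgeR fit as bars. Red points were called higher and blue points called lower at an adjusted p under 0.05. The 5 proteases called lower lie between -0.82 and -0.48, and Ctsf, the protease called higher, lies at 1.28. The 7 membrane proteins have intervals that cross 0.

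Neither regulator on the list passed the test. Tfeb, the factor that drives lysosomal genes, stood at 62.5, 50.9, 52.6 and 52.6 CPM in knockouts 1 to 4, against 42.6, 51.3, 58.9 and 56.8 CPM in controls 1 to 4. Its groups overlapped throughout, and its log2 fold change was 0.06 (95% interval -0.22 to 0.34, edgeR adjusted p = 0.796). The sign turned in 4 alternatives, with values down to -0.03. Grn, which encodes progranulin, a secreted precursor that is cut to granulins in the lysosome, stood at 217 ± 15.6 CPM in knockouts and 299 ± 53.0 CPM in controls (SD, n = 4 each). Its log2 fold change of -0.46 (SE 0.14) missed the threshold (adjusted p = 0.0576) but passed it in DESeq2, in voom with quality weights, with the length trend removed and without control 3 (adjusted p from 0.0211 to 0.155 over the alternatives).

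Promoter letters were compared because TFEB binds an E-box, and the stretches below show where it lies in 4 called proteases and in a pair of membrane genes that did not pass. RefSeq windows (build GRCm38.p6, 250 bases before to 50 after each start) were found for 40 of the 45 members; Ctsb, Ctsh, Npc1, Galns and Asah1 were not matched. The E-box core CACGTG, which reads the same on both strands, was in windows of 14 members (35%), against 11.3% of the 11818 tested genes with a window and 8.09% of all 27025 genes. The longer core of the CLEAR element, TCACGTGA, which contains the E-box, was in 5 members (12.5%), namely Ctsa, Ctsd, Cln3, Gla and Mcoln1, against 2.04% of tested genes. The FoxO site GTAAACA, searched on both strands, was in 0 of the 40, against 3.36% of tested genes. A list of 40 can give that count at such a share. The members had a mean of 1.15 windows per gene and the tested genes 1.27. Among members with a window, the E-box core was in 3 of the 5 called lower, 1 of the 2 called higher and 10 of the 33 not called. These matches describe letters in a window and say nothing of binding. The CLEAR element is known from the promoters of lysosomal genes, so its higher share in a lysosomal list is no separate finding. In the upstream stretches below, read 5′ to 3′ on the gene's strand, capitals mark each CACGTG:
Ctsl (chr13:64370721-64370770, - strand): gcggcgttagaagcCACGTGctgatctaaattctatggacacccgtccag
Ctsd (chr7:142387890-142388077, - strand): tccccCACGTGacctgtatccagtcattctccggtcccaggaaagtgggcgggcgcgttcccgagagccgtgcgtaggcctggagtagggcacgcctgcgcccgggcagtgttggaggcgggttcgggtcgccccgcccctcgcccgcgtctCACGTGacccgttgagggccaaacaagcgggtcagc
Lgmn (chr12:102439106-102439171, - strand): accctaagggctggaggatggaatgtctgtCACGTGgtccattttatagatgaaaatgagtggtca
Ctsf (chr19:4855056-4855121, + strand): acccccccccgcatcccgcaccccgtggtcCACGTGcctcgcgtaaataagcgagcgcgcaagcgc
Lamp1 (chr8:13159070-13159160, + strand): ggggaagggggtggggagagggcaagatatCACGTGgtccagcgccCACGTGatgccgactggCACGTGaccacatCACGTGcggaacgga
Mcoln1 (chr8:3500418-3500509, + strand): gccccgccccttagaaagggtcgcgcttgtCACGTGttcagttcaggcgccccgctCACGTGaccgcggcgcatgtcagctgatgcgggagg

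Read against these letters, Ctsd, with the longer core starting 99 bases before its start, fell in the knockout, while Mcoln1, with the same core starting 46 bases before its start, and Lamp1, with 4 E-boxes in 91 bases, did not pass. Ctsl and Lgmn fell and Ctsf rose, each with 1 E-box in the stretch shown.

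The lysosomal proteases held most of the calls: of 13, 5 fell, 1 rose and 7 did not pass, where 12.7% of all genes were called. Their median log2 fold change was -0.22. Ctsl encodes cathepsin L, a cysteine endopeptidase of broad specificity. It stood at 507, 539, 616 and 512 CPM in knockouts 1 to 4, against 1053, 858, 881 and 1025 CPM in controls 1 to 4. Every knockout library lay below every control, and the level was 1.76-fold lower (log2 fold change -0.81 ± 0.13 SE; adjusted p = 0.00462, edgeR). Lgmn encodes legumain, an endopeptidase that cuts after asparagine and matures cathepsins. Its levels were 897, 1095, 1199 and 1023 CPM in knockouts 1 to 4, against 1524, 1866, 1775 and 2281 CPM in controls 1 to 4. It was 1.77-fold lower, again with no overlap (log2 fold change -0.82 ± 0.16 SE; adjusted p = 0.0108). Ctsb, cathepsin B, another abundant cysteine protease, had 1175, 1276, 1244 and 1160 CPM in knockouts 1 to 4 and 1774, 1889, 1740 and 1921 CPM in controls 1 to 4. The spread within each group was small beside the gap between them, and Ctsb was 1.51-fold lower (log2 fold change -0.59 ± 0.12 SE; adjusted p = 0.0116). Ctsl, Lgmn and Ctsb stayed past the threshold with any 1 library omitted and in the fit without control 1 and knockout 3 together.

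The aspartic protease cathepsin D, encoded by Ctsd, was less even. It measured 1232, 1032, 1030 and 1020 CPM in knockouts 1 to 4, against 2478, 1288, 1795 and 1491 CPM in controls 1 to 4. Control 1 was the highest and control 2 lay close to knockout 1, so the groups were separate by a narrow margin. The level was 1.63-fold lower (log2 fold change -0.71 ± 0.20 SE; adjusted p = 0.0450, edgeR). With 1 library omitted, 7 of the 8 fits no longer called it, the exception being the fit without control 2 (adjusted p up to 0.138 over all alternatives). Ctsz, cathepsin Z, a carboxypeptidase, had 265, 231, 250 and 228 CPM in knockouts 1 to 4 and 319, 358, 309 and 377 CPM in controls 1 to 4. No control reached down to the knockouts, and Ctsz was 1.40-fold lower (log2 fold change -0.48 ± 0.12 SE; adjusted p = 0.0239). It lost its call without control 4 and without knockout 2, 3 or 4 (adjusted p up to 0.0975 over all alternatives). With these losses, and those of Gusb below, the count of 6 members called lower was 3 without knockout 2, without knockout 3, without knockout 4, or without control 1 and knockout 3 together.

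**Figure D2:**
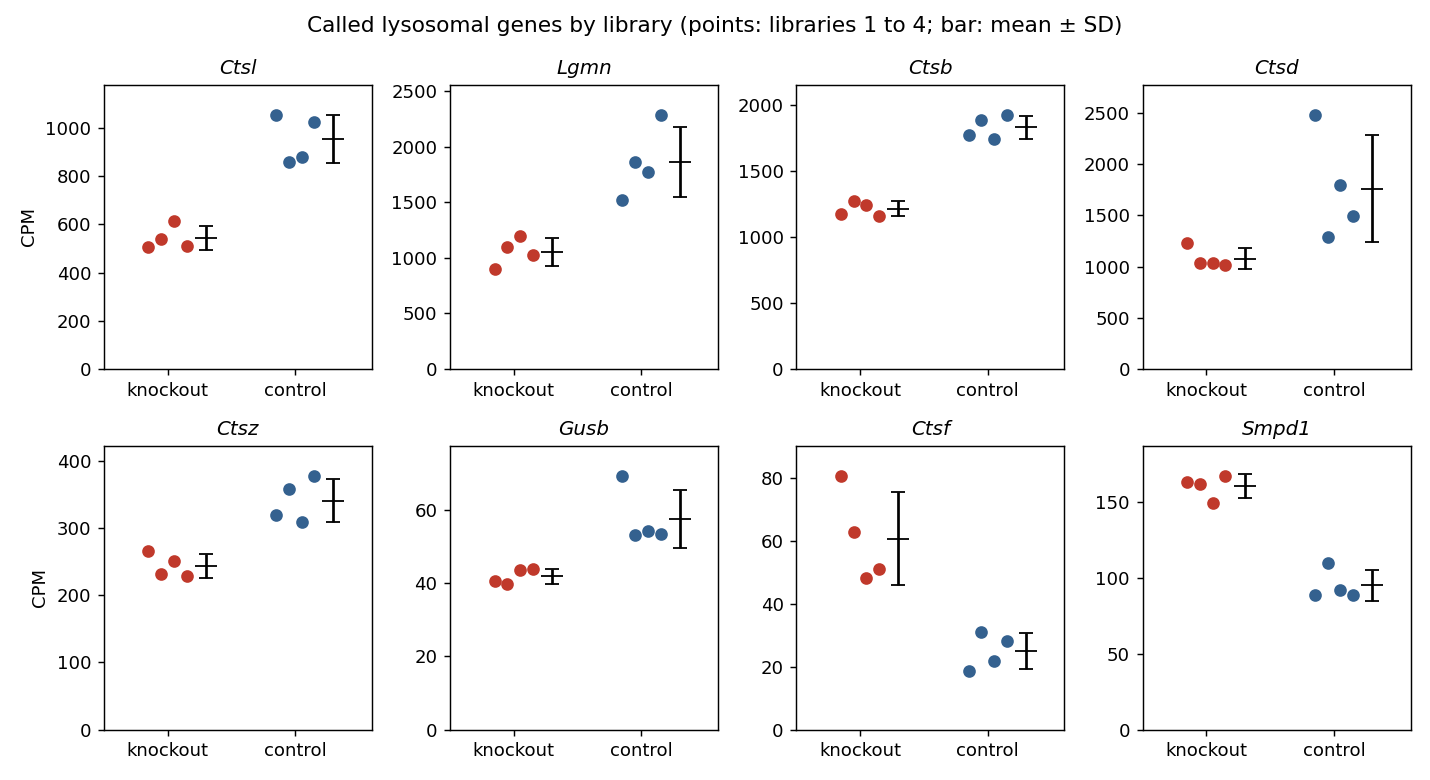
CPM of the 8 called members in each library (y axis, starting at 0), knockout left and control right. Points are libraries 1 to 4 in order and the bar beside them is the mean ± SD. Knockout and control points do not overlap in any of the 8 panels; Ctsd in control 1, at 2478 CPM, stands above the other 3 controls.

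Cathepsin F went the other way. Ctsf, a cysteine protease gene, stood at 80.6, 62.8, 48.2 and 51.2 CPM in knockouts 1 to 4, against 18.5, 31.2, 21.9 and 28.1 CPM in controls 1 to 4. The lowest knockout exceeded the highest control, and Ctsf was 2.43-fold higher (log2 fold change 1.28 ± 0.21 SE; adjusted p = 0.00482, edgeR), called in each alternative run. Per length it averaged 31.2 ± 7.56 RPKM (CPM per kilobase of gene length) in knockouts and 12.8 ± 2.97 RPKM in controls, so it stayed below Ctsl, at 155 ± 14.3 RPKM in knockouts and 272 ± 28.2 RPKM in controls (SD, n = 4 each). Ctso, another cysteine cathepsin gene, had 26.3 ± 2.14 CPM in knockouts and 19.5 ± 3.29 CPM in controls. Its groups did not overlap, but its log2 fold change of 0.43 missed the threshold (adjusted p = 0.0754).

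Cathepsin S, by contrast, was not separable between the groups. Ctss is the cathepsin of antigen-presenting cells, where it trims the invariant chain of MHC class II. It had 41.8, 25.0, 28.8 and 26.1 CPM in knockouts 1 to 4 and 52.5, 41.9, 20.4 and 26.6 CPM in controls 1 to 4. Library 1 was the highest in both groups and the ranges overlapped widely, with a log2 fold change of -0.22 (95% interval -0.85 to 0.41, edgeR adjusted p = 0.659). Without control 1 the value was 0.04. Ctsc, the dipeptidyl peptidase that activates the serine proteases of neutrophils, stood at 44.9 ± 3.40 CPM in knockouts and 61.1 ± 23.9 CPM in controls (log2 fold change -0.44, adjusted p = 0.230), with control 1 the highest at 94.5 CPM. Ctsk, the collagen-degrading cathepsin of osteoclasts, was the lowest protease at 5.98 ± 1.79 CPM in knockouts and 3.54 ± 1.72 CPM in controls (log2 fold change 0.76, adjusted p = 0.206). The aminopeptidase gene Ctsh, the protective protein gene Ctsa, which stabilises neuraminidase and beta-galactosidase, and the tripeptidyl peptidase gene Tpp1 had log2 fold changes of 0.19, 0.04 and -0.13 and adjusted p-values from 0.392 to 0.883.

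Markers of injured tubules and of neutrophils were lower along with the proteases, while the summed macrophage and monocyte markers overlapped between the groups. Over all genes 12.7% were called, 6.28% lower and 6.45% higher. Of 13 injured tubule markers 12 fell in the knockout, and no marker was at 0 in all libraries. Their summed level was 6373 to 7264 CPM in knockouts and 17156 to 32423 CPM in controls. Spp1 alone averaged 4751 CPM in knockouts and 16072 CPM in controls, so this injury sum mostly follows 1 gene. The summed level of the 13 proteases was 4751 to 5152 CPM in knockouts and 7171 to 7958 CPM in controls. Among the controls the injury sum was 31638, 17156, 32423 and 19123 CPM in libraries 1 to 4. There the protease sum was 7922, 7171, 7247 and 7958 CPM, so these sums did not rank the controls alike. Single proteases differed in this: Ctsd was highest in controls 1 and 3, at 2478 and 1795 CPM, while Lgmn was highest in control 4, at 2281 CPM. Of 20 macrophage and monocyte markers 2 fell (Cd14 and Ccr2), 0 rose and 18 did not pass, and 6 had an unadjusted p under 0.05. By sign, 8 were positive and 12 negative. Csf1r went the other way from Cd14, with every knockout above every control (log2 fold change 0.60, edgeR adjusted p = 0.0546). Without control 1, 2 of the 20 markers rose, and in DESeq2 4 fell and 1 rose. Their sum was 291 to 492 CPM in knockouts and 359 to 523 CPM in controls, and no marker was at 0 in all libraries. With 1 library omitted, 5 of 8 fits no longer called Ccr2 (adjusted p up to 0.0928). Of 8 neutrophil markers 7 were tested and 6 fell, with sums of 6.09 to 16.7 CPM in knockouts and 27.7 to 178 CPM in controls. The count of neutrophil markers that fell was 1 without knockout 2, 2 without knockout 4, 3 without knockout 3, and 4 without knockout 1, without control 1 and knockout 3 together or in DESeq2. Of 16 proximal tubule markers 4 rose and 0 fell, with sums of 26332 to 36275 CPM in knockouts and 12846 to 26715 CPM in controls. Only 2 of them rose without control 3 or without knockout 2, 3 or 4, when Lrp2 and Miox lost their calls. Kap, which was not called, averaged 18039 CPM in knockouts and 11952 CPM in controls, most of the proximal tubule sums. The part of these cells in the lower protease levels was not tested.

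**Figure D3:**
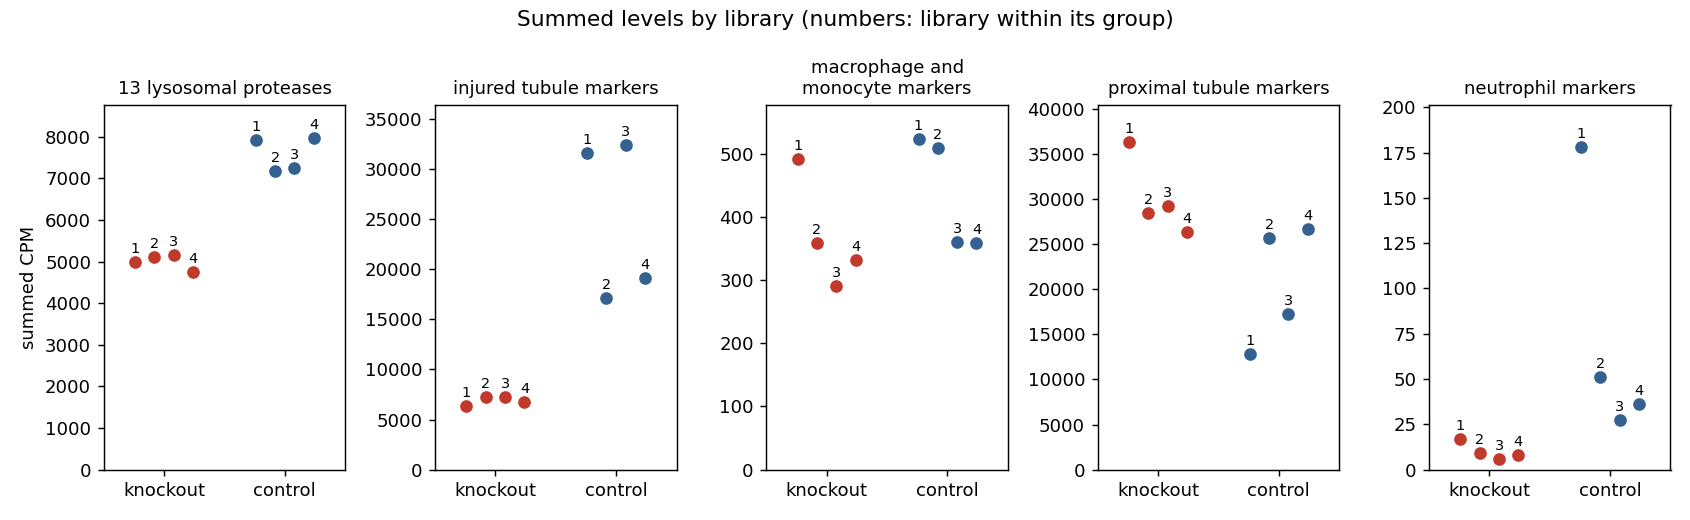
Summed CPM in each library (y axis from 0, its own scale in each panel) for the 13 lysosomal proteases and for 4 marker lists, knockout left and control right; digits give the library's number in its group. The proteases and the injured tubule markers separate the groups, and the macrophage and monocyte sums of 291 to 492 CPM in knockouts and 359 to 523 CPM in controls overlap. Spp1 makes up most of the injured tubule sum and Kap most of the proximal tubule sum.

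Of the 7 membrane proteins on the list edgeR called 0 (0 at an unadjusted p under 0.05), a count that a list this short can give where 12.7% of all genes were called. DESeq2 likewise called 0 of them, and voom with quality weights called Cd63 alone. Lamp1, a heavily glycosylated protein that lines the lysosomal membrane, stood at 1257, 1247, 1230 and 1200 CPM in knockouts 1 to 4, against 1030, 1455, 1166 and 1392 CPM in controls 1 to 4. The knockouts lay inside the range of the controls, with a log2 fold change of -0.03 (95% interval -0.34 to 0.28, edgeR adjusted p = 0.910); the sign turned without control 2 (0.04) or control 4 (0.02). Lamp2, its relative needed for fusion with autophagosomes, had 588, 676, 659 and 596 CPM in knockouts 1 to 4, against 631, 559, 590 and 566 CPM in controls 1 to 4. The groups overlapped and the log2 fold change was 0.10 (95% interval -0.15 to 0.35, adjusted p = 0.592). Mcoln1, the calcium release channel TRPML1, was narrow in both groups, at 63.6, 62.2, 65.8 and 66.7 CPM in knockouts 1 to 4 and 56.3, 64.2, 58.2 and 57.2 CPM in controls 1 to 4. Only control 2 reached into the knockout range, and the log2 fold change was 0.13 (95% interval -0.08 to 0.34, adjusted p = 0.388).

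Cd63, a tetraspanin of late endosomes and lysosomes, was the most abundant member per length, at 1421 ± 223 RPKM in knockouts and 1866 ± 386 RPKM in controls (SD, n = 4 each). Its log2 fold change was -0.39 (95% interval -0.81 to 0.02, edgeR adjusted p = 0.195). Npc1, which exports cholesterol from the lysosome, had 26.8 ± 2.82 CPM in knockouts and 34.1 ± 9.05 CPM in controls (log2 fold change -0.35, 95% interval -0.75 to 0.05, adjusted p = 0.235). Scarb2, the receptor that carries glucocerebrosidase to lysosomes, and Cln3, the membrane protein lost in a juvenile form of Batten disease, had log2 fold changes of 0.07 (95% interval -0.16 to 0.30, adjusted p = 0.687) and 0.21 (95% interval -0.08 to 0.51, adjusted p = 0.321). The intervals of the 7 membrane genes do not show equal levels.

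Of the 12 glycosidases, which remove sugars from glycoproteins and glycolipids, 1 fell, 0 rose and 11 did not pass. Over all genes 12.7% were called. The glycosidases had a median log2 fold change of 0.06. Gusb encodes beta-glucuronidase, which cuts glucuronic acid from glycosaminoglycans. It had 40.5, 39.7, 43.5 and 43.7 CPM in knockouts 1 to 4, against 69.1, 53.2, 54.1 and 53.3 CPM in controls 1 to 4. Control 1 stood above the other controls, all 4 of which lay over the knockouts, and Gusb was 1.37-fold lower (log2 fold change -0.46 ± 0.12 SE; adjusted p = 0.0301, edgeR). The call was lost without control 3 and without any 1 of the knockouts (adjusted p up to 0.0921 over all alternatives). Gla, the alpha-galactosidase deficient in Fabry disease, also had groups that did not overlap, at 12.2 ± 0.704 CPM in knockouts and 15.3 ± 2.50 CPM in controls, but missed the threshold (log2 fold change -0.32, adjusted p = 0.187).

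Several glycosidases had positive values that did not pass. Glb1, beta-galactosidase, averaged 125 ± 17.9 CPM in knockouts and 98.4 ± 15.8 CPM in controls (log2 fold change 0.34, edgeR adjusted p = 0.163). Fuca1, alpha-fucosidase, averaged 273 ± 31.5 CPM in knockouts and 224 ± 18.4 CPM in controls (log2 fold change 0.28, adjusted p = 0.155), and Neu1, the sialidase, 530 ± 30.4 CPM in knockouts and 425 ± 99.0 CPM in controls (0.32, adjusted p = 0.238). Gaa, which breaks down glycogen, had a log2 fold change of 0.25 (adjusted p = 0.186). Hexa, the alpha subunit of hexosaminidase A, stood at 0.19, the mannosidase genes Man2b1 and Manba at 0.13 and -0.10, the galactosylceramidase gene Galc at -0.17, and Naglu and Idua, which degrade heparan sulfate, at -0.10 and -0.01, all on the log2 fold scale with adjusted p-values of 0.324 or more. The 4 sulfatases, which remove sulfate groups, were called in 0 cases (0 at an unadjusted p under 0.05, and 0 in DESeq2). A list of 4 can give that count where edgeR called 12.7% of all genes and DESeq2 20.7%. Galns, Arsa, Arsb and Sgsh had log2 fold changes of -0.19, 0.23, -0.07 and 0.34. Galns ranged from 71.1 to 148 CPM in controls, wider than its 84.2 to 111 CPM in knockouts.

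Among the 7 lipid enzymes and their cofactors 1 rose, 0 fell and 6 did not pass, where 12.7% of all genes were called. Smpd1 encodes acid sphingomyelinase, which turns sphingomyelin into ceramide. It measured 163, 162, 149 and 167 CPM in knockouts 1 to 4, against 88.9, 109.7, 92.3 and 89.0 CPM in controls 1 to 4. The groups were well apart, with no library between 109.7 and 149 CPM, and Smpd1 was 1.69-fold higher (log2 fold change 0.76 ± 0.11 SE; adjusted p = 0.00292, edgeR). It had the smallest adjusted p of the 45 members and was called in every alternative run, with log2 fold changes from 0.72 to 0.83. The next enzyme of that route, acid ceramidase, encoded by Asah1, was level at 104 ± 4.24 CPM in knockouts and 101 ± 5.64 CPM in controls (SD, n = 4 each, log2 fold change 0.04, 95% interval -0.17 to 0.25, adjusted p = 0.815).

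The cofactor genes differed in spread. Psap, the precursor of the saposins that present lipids to hydrolases, stood at 2498 ± 230 CPM in knockouts and 2329 ± 404 CPM in controls (log2 fold change 0.10, edgeR adjusted p = 0.722). Gm2a, the activator protein of ganglioside breakdown, had 561, 486, 469 and 412 CPM in knockouts 1 to 4, against 179, 398, 258 and 423 CPM in controls 1 to 4. Controls 1 and 3 were the low libraries, control 4 reached into the knockout range, and the log2 fold change of 0.62 (SE 0.25) did not pass (adjusted p = 0.129). Lipa, the acid lipase that frees cholesterol from its esters, had groups that did not overlap, from 74.9 to 146.0 CPM in knockouts and from 146.2 to 177 CPM in controls, with a margin far smaller than the spread (log2 fold change -0.36, adjusted p = 0.236). Npc2, which hands cholesterol to NPC1, and Ppt1, which strips palmitate from proteins, had log2 fold changes of 0.11 and 0.04 (adjusted p = 0.697 and 0.834).

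Within a library the members kept a similar order of levels per length. Cd63, Psap, Ctsd, Lgmn and Lamp1 were the 5 highest by mean RPKM in both groups, and Idua, Sgsh and Ctsk were the lowest, with group means between 2.24 and 3.78 RPKM. Neighbours such as Lamp1 and Lgmn in the knockouts, at 553 ± 11.1 and 525 ± 63.2 RPKM, did not differ beyond their spread, whereas in the controls Lgmn, at 928 ± 157 RPKM, lay above Lamp1, at 565 ± 88.6 RPKM. The sum over all 45 members was 5756 to 6288 RPKM in knockouts and 6811 to 8202 RPKM in controls. The 13 proteases took 32.5% to 34.1% of that sum in knockouts and 36.2% to 47.5% in controls. Without the 5 proteases that fell, the sum was 4165 to 4621 RPKM in knockouts and 3863 to 5350 RPKM in controls, and the groups overlapped; this subset was chosen after the calls were seen. Deposited gene lengths set these levels: that of Cd63, 1211 bases, is 0.418 times its longest transcript in GENCODE M21, that of Ctsl 0.569 times and that of Ctsc 3.44 times, with a median ratio of 0.999 over the members.

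**Figure D4:**
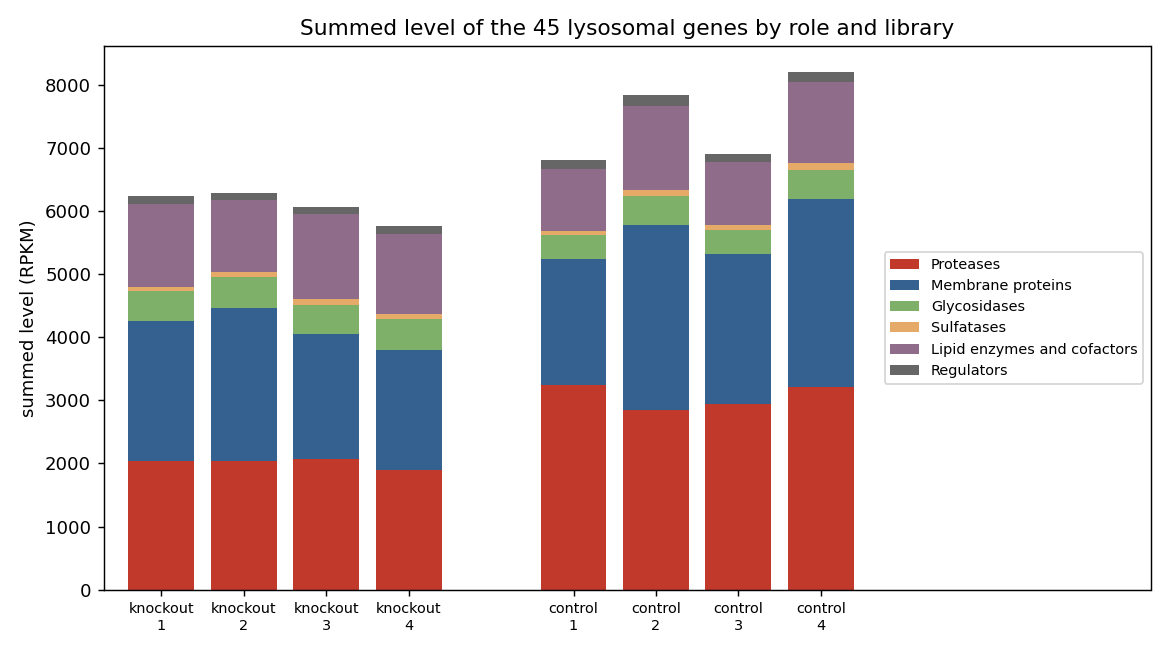
Summed RPKM of the 45 genes in each library (y axis from 0), stacked by role, with the 4 knockouts left of the 4 controls. The protease segment spans 1902 to 2064 RPKM in knockouts and 2841 to 3237 RPKM in controls, and the total is lower in every knockout than in every control.

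Controls varied more among themselves than knockouts did. The relative SD was larger in the controls for 34 of the 45 members, with a median of 9.25% in knockouts and 15% in controls. Control 1 was the lowest control for 22 members and the highest for 12, and control 4 was the highest for 16. Psap, for example, stood at 2572, 2173, 2713 and 2533 CPM in knockouts 1 to 4, against 1994, 2722, 1967 and 2633 CPM in controls 1 to 4. Neu1 had 569, 513, 499 and 537 CPM in knockouts 1 to 4, against 353, 498, 327 and 522 CPM in controls 1 to 4. In both genes controls 1 and 3 were the low libraries, while Ctsd and Npc1 were highest in those controls. In the same controls injured tubule sums were highest (31638 and 32423 CPM) and proximal tubule sums lowest (12846 and 17236 CPM). The part of these cells in the spread was not tested.

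The proton pump that acidifies lysosomes was read from a list of 22 V-ATPase genes. Of these, 6 rose, 2 fell and 14 did not pass, where 12.7% of all genes were called. The subunits that rose were mostly isoforms typical of the acid-secreting intercalated cells of the collecting duct. Atp6v1b1 had 166, 140, 130 and 134 CPM in knockouts 1 to 4, against 34.1, 69.7, 59.8 and 59.7 CPM in controls 1 to 4, with no overlap (log2 fold change 1.35 ± 0.20 SE; adjusted p = 0.00334, edgeR). Atp6v0d2 rose 1.82-fold and Atp6v1c2 rose 2.78-fold. The widespread isoform Atp6v1b2 went the other way, at 411 ± 13.7 CPM in knockouts and 582 ± 15.4 CPM in controls (1.42-fold lower, adjusted p = 0.0127), and Atp6v0a1, also widespread, fell 1.46-fold. Atp6v0a1 lost its call without control 3, knockout 2 or knockout 4 (adjusted p up to 0.0765). The count of subunits that rose was 4 without control 3, without control 4, without knockout 2, or without control 1 and knockout 3 together. Beside this, 9 of 12 markers of the loop of Henle and distal nephron rose, where 6.45% of all genes were called higher. Their sums were 8697 to 9209 CPM in knockouts and 2666 to 4708 CPM in controls. Umod alone averaged 5550 CPM in knockouts and 2630 CPM in controls, most of these sums. The part of these markers in the pump values was not tested.

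**Figure D5:**
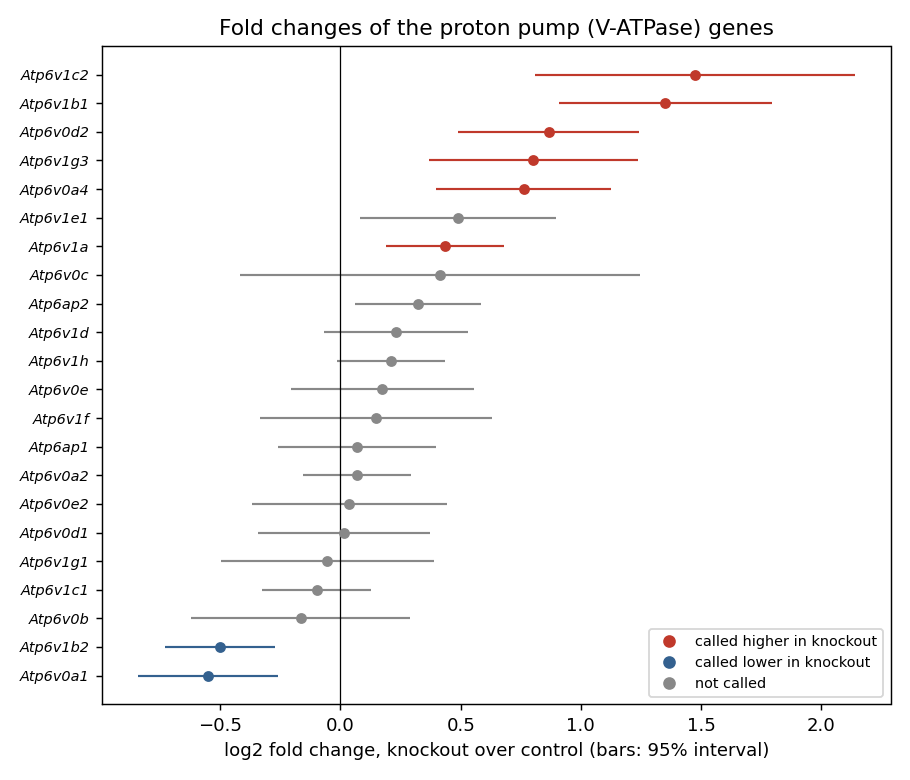
Log2 fold change (knockout over control, x axis) of the 22 V-ATPase genes with 95% intervals from the edgeR fit. The 6 genes in red were called higher and 2 in blue called lower; Atp6v1b1 at 1.35 and Atp6v1b2 at -0.50, alternative B subunits, lie on opposite sides of 0.

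Protease inhibitors, some cytosolic and some secreted, were measured in the same libraries. Of the 9 inhibitor genes counted, 5 were tested, where 12.7% of all genes were called. Of the 5, 2 fell, 0 rose and 3 did not pass. The count that fell was 4 without control 4 and in DESeq2, and 3 without knockout 1 or knockout 2. Cstb encodes cystatin B, an inhibitor of cathepsins B, H and L. It had 185, 149, 135 and 112 CPM in knockouts 1 to 4, against 288, 325, 265 and 324 CPM in controls 1 to 4. The groups were apart, and Cstb was 2.07-fold lower (log2 fold change -1.05 ± 0.16 SE; adjusted p = 0.00370, edgeR). Serpinb6a, a serpin of the cytosol, fell 2.29-fold, with libraries at 43.9 to 53.6 CPM in knockouts against 74.2 to 173 CPM in controls. Cst3, the secreted cystatin C, stood at 374 ± 96.0 CPM in knockouts and 319 ± 47.9 CPM in controls and did not pass (log2 fold change 0.23, adjusted p = 0.453).

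Other lysosomal enzymes and membrane proteins outside the list, the V-ATPase aside, were called about as often as genes at large. Of all genes 12.7% were called. Of 22 further enzymes tested, 1 rose and 1 fell: Hyal1, a hyaluronidase, at 38.4 ± 7.61 CPM in knockouts and 12.3 ± 3.86 CPM in controls (3.12-fold higher, edgeR adjusted p = 0.00334), and Hgsnat, an acetyltransferase of heparan sulfate breakdown, at 62.6 ± 5.93 CPM in knockouts and 94.8 ± 22.2 CPM in controls (SD, n = 4 each). With 1 library omitted, 6 of 8 fits no longer called Hgsnat (adjusted p up to 0.110), the exceptions being those without control 2 or control 4. Of 23 further membrane proteins tested, 3 rose and 0 fell. Mcoln3, a channel related to Mcoln1, rose 3.54-fold, with 16.2 ± 2.83 CPM in knockouts and 4.58 ± 2.01 CPM in controls. Abca2 and Laptm4b rose 1.58-fold and 1.51-fold; Abca2 lost its call without control 4 or knockout 2, 3 or 4, and Laptm4b without control 3, control 4 or knockout 4 (adjusted p up to 0.0749). Cd68, a lysosomal protein abundant in macrophages, stood at 21.5 ± 2.94 CPM in knockouts and 32.2 ± 7.10 CPM in controls and missed the threshold (log2 fold change -0.58, adjusted p = 0.0534).

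Sorting and control genes were mixed, where 12.7% of all genes were called. Of 14 genes of mannose 6-phosphate sorting 1 rose and 0 fell: Sort1, a sorting receptor, rose 1.51-fold, and lost its call without knockout 2 or knockout 4 (adjusted p up to 0.0692). Of 17 genes of the TFEB family and of nutrient sensing at the lysosome 3 rose (Mitf, Rragd and Mtor) and 1 fell (Tfe3). Tfe3, the close relative of Tfeb, had 46.2, 45.1, 49.2 and 41.1 CPM in knockouts 1 to 4, against 61.4, 57.3, 58.9 and 63.9 CPM in controls 1 to 4 (log2 fold change -0.41 ± 0.10 SE; adjusted p = 0.0246, edgeR). Mitf, another relative, stood at 16.6 ± 1.70 CPM in knockouts and 10.5 ± 1.75 CPM in controls (1.58-fold higher, adjusted p = 0.0241), and Rragd, a GTPase that recruits mTORC1, rose 1.63-fold. None of these 4 calls held with every single library omitted (adjusted p up to 0.119). All 4 calls were lost without knockout 4, and the count of genes that rose was 1 without control 4, without knockout 2, without knockout 3 or without control 1 and knockout 3 together.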

How the data were processed

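RNA-seq of mouse kidney was deposited by the authors as 1 table of raw counts per gene, with a column per library and a gene length in bases. Among tools, HISAT2 2.2.1 and Salmon 1.10.2 are listed in the submitters' processing notes, beside Trim Galore 0.6.2, FastQC and the build mm39; which made the counts, and the annotation, stay unstated in the sources used here. The kit in the labels marks no strand, so overlapping and antisense genes cannot be told apart, and related genes may share reads. Even numbers made up 68.7% to 70.9% of counts from 1 to 20 per library, against 49.5% to 50.4% of those over 100, so a count may stand for less than 1 fragment; precision from depth covers counting error only. Genes were taken by symbol; the identifier column was not used.

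Knockout was compared with control in edgeR 4.0.16 (R 4.3.3): filterByExpr with a minimum count of 10, TMM, glmQLFit and glmQLFTest without covariates on all 8 libraries, with p-values adjusted by Benjamini-Hochberg over 15000 genes; called means an adjusted p under 0.05. SEs come from the F statistic and 95% intervals from its degrees of freedom. CPM and RPKM use TMM library sizes and deposited lengths. The scripts were tested on simulated data. There edgeR called 57.1% of 98 genes changed by a log2 fold of 1 and 82.7% of 98 changed by 2, with 8 false calls. Far fewer genes were changed there than the 1909 called in the data, so these shares need not hold for the data. Smaller changes were not simulated. Alternatives were DESeq2 1.42.0, limma 3.58.1 (voom), other scalings and filters, a replicate block, a length trend removed, and libraries left out. All 45 members are named; those called, and Ctsb, Ctsd, Ctsl, Ctss, Lamp1, Lamp2, Tfeb and Mcoln1, are given by library. Of other lists up to 4 called genes by smallest p were eligible. Cd68, Cst3, Umod, Slc34a1, Csf1r, Kap, Spp1 and Atp6v0a1 were named beyond that rule, after their values were seen. Laptm4b, which met the rule, was also added then. Members, lists and rules were chosen with earlier results of these data known. Motifs were searched in RefSeq windows of GRCm38.p6, used for sequence only.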

Additional observations from a re-analysis of the deposited data

Results flagged for a closer look

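In 5 of the 90 member groups (45 genes, knockout and control) 1 library stood apart from the other 3 by Dixon's criterion; chance alone gives about 1 in 20 groups. Knockout 1 was high for Ctsd (1232 CPM, against 1020 to 1032 CPM in the other knockouts), Npc2 (200.4 CPM, against 141.8 to 151.2 CPM) and Tfeb (62.5 CPM, against 50.9 to 52.6 CPM). Control 1 was high for Gusb (69.1 CPM, where the other 3 controls had 53.2 to 54.1 CPM). Control 2 was high for Smpd1 (109.7 CPM, against 88.9 to 92.3 CPM); it still lay below every knockout.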

How the results depend on the processing

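The count of genes called, 1909, was 3109 in DESeq2, 1045 without control 1 and knockout 3 together, 572 and 3114 at adjusted p limits of 0.01 and 0.10, and 907 to 1984 when 1 library was left out. The 6 members called lower were 3 without control 1 and knockout 3 together, 1 at the 0.01 limit and 3 to 6 with 1 library left out; the 2 called higher were 2 in each of those fits and 3 in DESeq2, in voom with quality weights and at 0.10. Libraries with the same number in their titles did not deviate together (correlations of -0.29, 0.07, 0.27 and -0.28), so these numbers are not taken as pairs. With them as a replicate block 865 genes were called, 2 members higher and 2 lower, without Ctsb, Ctsd, Ctsz and Gusb (Ctsb edgeR adjusted p = 0.0724). The deposited column names number the knockouts otherwise. By those names knockout 1 would go with control 2 (correlation 0.50) and knockout 2 with control 3 (0.19). A block by column name was not run, so pairing stays undecided.

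Signs turned only in uncalled members with small values: Idua (0.0022 with RLE factors, 0.0023 in DESeq2, 0.0139 in voom, 0.0090 with the replicate block, -0.129 to 0.0836), Ctsa (-0.0417 with quality weights, -0.0387 to 0.143), Npc2 (-0.0275 with quality weights, -0.0173 to 0.205), Tfeb (-0.0336 with quality weights, -0.0097 without control 1 and knockout 3 together, -0.0288 to 0.12), Ctss (0.0634 without those libraries, -0.409 to 0.0372), Psap (-0.0087 without them), Arsb (-0.22 to 0.0981), Lamp1 (-0.118 to 0.0444) and Ppt1 (-3e-04 to 0.0626), ranges being those with 1 library left out. The cause was not tested. The share of calls that were higher stayed within 46.6% to 53.7% over the other scalings, tools and left-out libraries, against 50.7%.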

Other observations

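Ratios within a library, chosen after the values were seen and given without a test, set paired genes side by side. Smpd1 over Asah1, acid sphingomyelinase over acid ceramidase per length, was 1.43, 1.39, 1.35 and 1.58 in knockouts 1 to 4, against 0.771, 1.00, 0.842 and 0.884 in controls 1 to 4. The RNA of the 9 cysteine cathepsins summed over that of Cstb, a cytosolic inhibitor of some of them, stood at 2.68 to 3.94 in knockouts. In controls it was 2.01 to 2.27. The cathepsin sum itself was 734 to 825 RPKM in knockouts and 998 to 1147 RPKM in controls, and Cstb was 2.07-fold lower in the knockouts. Over Cst3, the secreted inhibitor, the same sum was 1.31 to 2.17 in knockouts and 2.25 to 3.00 in controls. Ctsl over Ctsf was 3.49 to 7.09 in knockouts and 15.2 to 31.5 in controls. Atp6v1b1 over Atp6v1b2 was 0.432 to 0.557 in knockouts and 0.0800 to 0.172 in controls.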
